A study of Homo sapiens with 8 samples.

Results

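*GFI1B* encodes a zinc-finger repressor that is needed for the red cell and platelet lineages. It acts by bringing the LSD1 and CoREST co-repressor complex to its targets and by holding back genes of other blood lineages, and it also represses its own gene. Enhancers of *GFI1B* lie inside and downstream of the gene, whereas its promoter lies at the transcription start site (TSS). An sgRNA that carries a repressor or an activator to either place can therefore change the dosage of the same transcription factor (TF) by different routes.

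The sgRNAs described here are the 20 of 91 targeting sgRNAs that were directed at the *GFI1B* enhancers (6 sgRNAs) or at the *GFI1B* promoter (14 sgRNAs, of which 2 were designed at the TSS and 12 tile the region around it). They were chosen by the target gene and design class in the deposited table, and 5 sgRNAs with mismatches against *GFI1B* were not included. The cells are K562, an established human erythroleukaemia line that can be pushed along red cell and megakaryocyte paths. In the CRISPRi line, which carries a dCas9 repressor fusion that includes KRAB, an sgRNA represses its site. In the CRISPRa line, a monoclonal line with dCas9-VPR, an sgRNA activates its site. Both lines were transduced with the same sgRNA library, collected 8 days later, marked with antibody hashing tags and run together on 2 lanes for targeted single-cell RNA sequencing. There are 8 sequencing records, 4 of cDNA, 2 of sgRNA tags and 2 of hashing tags, and they do not differ in treatment, so that the comparison is made between sgRNAs within each line.

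The measurement is the log2(FC) of a gene, comparing cells with 1 sgRNA to cells with a non-targeting control (NTC) sgRNA of the same line. The study's methods describe it as a difference of logged mean normalised expression. Some genes shared 1 identical lowest value across sgRNAs, so it may not be a plain ratio where few transcripts were found. Percentages of the NTC level are computed from it as from a plain ratio and are approximate. The NTC cells number 536 in CRISPRi and 323 in CRISPRa and are shared by all sgRNAs of a line. The table gives 92 genes, *GFI1B* itself and 91 genes taken here as trans genes. Per the study's methods, most were picked because they had responded to inhibition of *GFI1B* or *NFE2* enhancers in earlier work. The *GFI1B* enhancer sgRNAs were taken from that work too. Each sgRNA was measured once in each line, in 1 culture, so no value carries an error of its own, and every test uses the spread between sgRNAs. Guides to 1 site are not independent cultures, and p-values measure only that spread. Depth is known as numbers of cells. Enhancer sgRNAs had 48 to 106 cells each in CRISPRi (median 69.5) and 30 to 59 in CRISPRa (median 44), and promoter sgRNAs had 11 to 151 (median 75) and 17 to 147 (median 86). The lower cell number of enhancer sgRNAs in CRISPRa gave a p of 0.0357 in an exact permutation test and an adjusted p of 0.107 over 5 features. The table holds no expression levels, so the identity of the cells could not be checked against marker genes.

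The 6 enhancer sgRNAs fall into 3 elements, with 2 sgRNAs in each, and are shown here because the order of their effects on *GFI1B* in CRISPRi follows the order of the sites. All 20 protospacers matched hg38. Protospacers are written 5′ to 3′ in lower case with the PAM in capitals.
GFI1B_15: ttgcatggcggctggcccaaGGG
GFI1B_16: tgtcggcctgggtgcagcgtGGG
GFI1B_18: caccgtgcgataaacttatcAGG
GFI1B_17: ataagtttatcgcacggtgcCGG
GFI1B_19: tggctcgtgggatgtctacgGGG
GFI1B_20: gctggaaaccgtcacggttaAGG

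GFI1B_15 and GFI1B_16 target element 1 (hg38, chr9:132985047-132985132), in intron 1 of the canonical *GFI1B* transcript, with their centres 6247.5 and 6313.5 bp downstream of the deposited TSS position at 132978809. GFI1B_17 and GFI1B_18 target element 2 (chr9:132999343-132999363), an intergenic site that begins 7656 bp past the annotated end of *GFI1B*. Their protospacers lie on opposite strands and share 19 bases, so that they address the same site. GFI1B_19 and GFI1B_20 target element 3 (chr9:133004051-133004197), also intergenic, 12364 bp past the end of *GFI1B* and 26478 bp before *GTF3C5*, the next coding gene.

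Element 2 is printed with 30 flanking bases on each side on the plus strand, because the protospacer of GFI1B_18 covers an inverted pair of GATA letters, and that of GFI1B_17 all of it but the first base. Capitals mark GATAA, the core letters bound by GATA factors, on either strand.
Element 2, chr9:132999313-132999393: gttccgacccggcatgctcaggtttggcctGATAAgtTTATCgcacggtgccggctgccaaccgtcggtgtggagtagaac
Searched on both strands, a window of 300 bases centred on element 2 held 3 matches of GATAA, and the windows around elements 1 and 3 and around the deposited TSS held 1 each. Of 35116 RefSeq promoters of the same length on hg38, 22.7% held at least 1 match and 0.891% held 3 or more. AATCAC, the core letters of GFI factor sites, was in none of the 4 windows and in 10.2% of RefSeq promoters. The elements are intronic or intergenic, and windows of that kind were not counted, so the promoter shares are not a matched background for them. A match of letters does not show that a factor binds.

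Element 3 is printed because it held the enhancer sgRNA that changed *GFI1B* most in either line. Capitals mark the protospacers of GFI1B_19 and GFI1B_20.
Element 3, chr9:133004021-133004227: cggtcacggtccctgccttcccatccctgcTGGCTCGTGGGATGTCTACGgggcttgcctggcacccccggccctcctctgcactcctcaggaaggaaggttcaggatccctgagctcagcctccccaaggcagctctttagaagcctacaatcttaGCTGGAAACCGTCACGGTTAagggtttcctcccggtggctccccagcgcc

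The 14 promoter sgRNAs lie on both sides of the TSS, their distances to it running from -1104.5 bp (GFI1B_12) to 482.5 bp (GFI1B_11). Those that came nearest in *GFI1B* log2(FC) to the sgRNAs of element 3 are shown with their PAM in capitals.
GFI1B_5: cgtgccgctccaagtgtcgaGGG
GFI1B_3: atagggaagtcattgctcttTGG
GFI1B_14: ggttctgccggagcttcccgAGG
GFI1B_14 lies in the first exon of the canonical transcript, in the 5′ UTR, at chr9:132978798-132978817. GFI1B_5 (chr9:132978515-132978534) and GFI1B_3 (chr9:132978358-132978377) lie upstream of that transcript, within the span of the longer *GFI1B* gene model. The enhancer and promoter sgRNAs did not differ beyond their spread in the on-target score (0.271 ± 0.221, SD, n = 6, against 0.397 ± 0.239, SD, n = 14, exact permutation p = 0.28, adjusted p = 0.47) or in the GC content of the protospacer (56.7% ± 10.3 against 58.6% ± 10.3, exact permutation p = 0.728, adjusted p = 0.909). The specificity score was 92 ± 7.21 for enhancer sgRNAs and 78.1 ± 15.1 for promoter sgRNAs (exact permutation p = 0.0427, adjusted p = 0.107 over the 5 features).

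The first comparison asks how far each route changed *GFI1B*. In CRISPRi, the enhancer sgRNAs gave a *GFI1B* log2(FC) of 0.05 (GFI1B_15) and -0.16 (GFI1B_16) at element 1, -0.20 (GFI1B_18) and -0.23 (GFI1B_17) at element 2, and -0.38 (GFI1B_19) and -0.51 (GFI1B_20) at element 3. The order of repression was the order of distance from the TSS for all 6 sgRNAs, those of element 2 being 1 base apart. *GFI1B* was at 103% of the NTC level with GFI1B_15 and at 70.3% with GFI1B_20. The promoter sgRNAs ranged from -0.04 (GFI1B_4) to -1.42 (GFI1B_8), which left 37.3% of the NTC level, with a median of -1.09. Of the 14 promoter sgRNAs, 9 went lower than the lowest enhancer sgRNA, and the other 5 lay within the range of the enhancer sgRNAs. These 5, GFI1B_1, GFI1B_2, GFI1B_3, GFI1B_4 and GFI1B_12, lie upstream of the TSS, at -316.5 to -1104.5 bp.

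The mean *GFI1B* log2(FC) in CRISPRi was -0.24 ± 0.19 (SD, n = 6) for enhancer sgRNAs and -0.84 ± 0.52 (SD, n = 14) for promoter sgRNAs, a difference of 0.60 (two-sided exact permutation test over 38760 assignments, p = 0.0163, adjusted p = 0.0326 over 2 lines). The call depended on treating the 6 sgRNAs as separate units: with the sgRNAs averaged per element, the difference was unchanged and the adjusted p was 0.197 in the same exact test. It was also lost (adjusted p up to 0.0703 in the exact test) when any of 12 sgRNAs was left out.

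In CRISPRa, all 6 enhancer sgRNAs had a *GFI1B* log2(FC) above 0. The log2(FC) was 0.12 (GFI1B_15) and 0.14 (GFI1B_16) at element 1, 0.13 (GFI1B_18) and 0.20 (GFI1B_17) at element 2, and 0.16 (GFI1B_19) and 0.51 (GFI1B_20) at element 3. GFI1B_20 stood apart from the other 5, at 142% of the NTC level. The promoter sgRNAs lay between -0.08 and 0.49 (median 0.14), with 10 above and 4 below 0, and the highest, GFI1B_5, reached 141% of the NTC level. The means were 0.21 ± 0.15 (SD, n = 6) and 0.13 ± 0.17 (SD, n = 14), and the difference of 0.07 was within the spread (exact permutation p = 0.381, adjusted p = 0.381). Without GFI1B_20 the difference was 0.01.

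As a control from the same cultures, the 20 sgRNAs against *TET2*, a DNA demethylase gene on another chromosome, were taken as a background. They changed *TET2* by -0.22 ± 0.17 in CRISPRi and by 0.25 ± 0.26 in CRISPRa (SD, n = 20), and had 29 to 142 and 18 to 104 cells each. *GFI1B* with *TET2* sgRNAs ranged from -0.11 to 0.06 in CRISPRi and from -0.15 to 0.18 in CRISPRa. In CRISPRi, 5 of 6 enhancer sgRNAs were below all *TET2* sgRNAs, the exception being GFI1B_15, and in CRISPRa 2 of 6, GFI1B_17 and GFI1B_20, were above all of them. *GFI1B* was lower with enhancer sgRNAs than with *TET2* sgRNAs in CRISPRi by 0.21 (two-sided exact permutation test over 230230 assignments, adjusted p = 0.000452) and higher in CRISPRa by 0.19 (adjusted p = 0.000287 in the same exact test). Without GFI1B_20 the CRISPRa difference was 0.13 (exact permutation, adjusted p = 0.00277). These tests treat the 6 enhancer sgRNAs as separate units, and they were not run with the sgRNAs averaged per element.

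The next comparison concerns the trans genes. The size of the response of an sgRNA was taken as the average of the absolute log2(FC) of its 91 trans genes. In CRISPRi it was 0.061 (GFI1B_15), 0.072 (GFI1B_16), 0.092 (GFI1B_18), 0.093 (GFI1B_17), 0.13 (GFI1B_19) and 0.145 (GFI1B_20), again in the order of the sites, and 7, 5, 13, 11, 23 and 25 trans genes lay beyond 0.2 in either direction. For the promoter sgRNAs the size lay between 0.038 and 0.211 (median 0.182). The means were 0.0988 ± 0.0327 (SD, n = 6) for enhancer sgRNAs and 0.155 ± 0.059 (SD, n = 14) for promoter sgRNAs, a difference of -0.0563 that did not pass after adjustment (exact permutation p = 0.0443, adjusted p = 0.0887). In CRISPRa the size was 0.07 to 0.119 for 5 enhancer sgRNAs and 0.287 for GFI1B_20, while promoter sgRNAs ranged from 0.038 to 0.3, the highest again being GFI1B_5. The means were 0.12 ± 0.0839 (SD, n = 6) and 0.108 ± 0.0698 (SD, n = 14), which did not differ beyond the spread (exact permutation p = 0.768, adjusted p = 0.768). The sign of that difference turned without GFI1B_20 (-0.0214).

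Against the *TET2* sgRNAs, the mean response to the enhancer sgRNAs was larger in both lines, by much less in CRISPRa once GFI1B_20 was left out. With *GFI1B* and *TET2* left out (90 genes), the average size was 0.0986 ± 0.0335 (SD, n = 6) with enhancer sgRNAs and 0.0468 ± 0.011 (SD, n = 20) with *TET2* sgRNAs in CRISPRi (exact permutation, adjusted p = 4.34e-05). Of the 6 enhancer sgRNAs, 5 lay above all *TET2* sgRNAs in CRISPRi. In CRISPRa the size was 0.121 ± 0.0847 and 0.0626 ± 0.0142 (exact permutation, adjusted p = 0.000973), and 4 of the 6 lay within the range of the *TET2* sgRNAs, which reached 0.09. Without GFI1B_20 the enhancer mean in CRISPRa was 0.0867 ± 0.0193 (SD, n = 5; exact permutation, adjusted p = 0.00459). Here too the 6 enhancer sgRNAs count as separate units, and the exact test was not run with the sgRNAs averaged per element. The average size can also take up noise from small cell numbers. The enhancer sgRNAs had a median of 44 cells in CRISPRa where the *TET2* sgRNAs had 59. Whether cell number bears on the difference in response size was not tested.

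Tested gene by gene with limma, 37 of 90 genes (41.1%) differed between enhancer and *TET2* sgRNAs in CRISPRi at an adjusted p under 0.05, of which 18 were higher and 19 lower. In CRISPRa, 39 of 90 (43.3%) differed, 13 higher and 26 lower. Without GFI1B_20 this was 17, 2 higher and 15 lower, all of them among the 39. Of the 22 genes that no longer passed with 5 sgRNAs, some had differences about as large as before (*HMGN5*, -0.13 and -0.12) and others far smaller ones (*FAH*, -0.13 and -0.04). With the 2 sgRNAs of each element averaged, the count was 25, 8 higher and 17 lower. The promoter sgRNAs, set against the same *TET2* sgRNAs, gave 62 of 90 genes (68.9%) in CRISPRi, 28 higher and 34 lower. In CRISPRa they gave 5 of 90 (5.56%), all lower, with 28 genes at an unadjusted p under 0.05, and this count moved between 0 and 14 when single promoter sgRNAs were left out (14 without GFI1B_3, which had 17 cells, and 0 without GFI1B_6, GFI1B_12 or GFI1B_14). The panel was largely picked for such responses, so the shares of genes called hold for this panel and not for genes at large. These comparisons share the *TET2* sgRNAs and the NTC cells. The 2 lines share no cells, though they share the sgRNAs: 25 genes were called for enhancer sgRNAs in both lines, 67.6% of the CRISPRi calls and 64.1% of the CRISPRa calls. All 25 had opposite directions in the 2 lines, 16 being higher in CRISPRi and lower in CRISPRa and 9 the reverse, and over all 90 genes 76 (84.4%) had opposite signs. Without GFI1B_20 in CRISPRa, 13 genes were called in both lines, all 13 in opposite directions, and 71 of 90 (78.9%) had opposite signs.

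The 2 measured members of the myeloid list, *SPI1* and *DAPK1*, were among the genes that rose furthest with enhancer CRISPRi. The paper already names both for their large increases under strong *GFI1B* repression, and the list was chosen with earlier results known. Their rise is therefore no independent test of a response of myeloid genes. *SPI1*, which encodes the myeloid master regulator PU.1, had a log2(FC) of 0.10, 0.14, 0.38, 0.54, 0.59 and 0.64 with GFI1B_15, GFI1B_16, GFI1B_18, GFI1B_17, GFI1B_19 and GFI1B_20. The value rose at each step as *GFI1B* fell, and 4 of the 6 were above all *TET2* sgRNAs, which reached 0.17. Relative to *TET2* sgRNAs, *SPI1* rose by 0.41 ± 0.07 (SE, adjusted p = 2.02e-05). With promoter sgRNAs *SPI1* rose by 0.84 ± 0.08 (adjusted p = 8.59e-10). In CRISPRa, *SPI1* with the enhancer sgRNAs was -0.21, -0.43, -0.13, 0.10, -0.19 and -0.72 in the same order of sgRNAs, and it fell by 0.33 relative to *TET2* sgRNAs (SE 0.07, adjusted p = 0.00334). *DAPK1*, a kinase gene in cell death pathways and the other measured member of the myeloid list, was 0.20, 0.46, 0.49, 0.44, 0.59 and 0.69 in CRISPRi in that order. It rose by 0.41 ± 0.06 (adjusted p = 5.69e-06), and in CRISPRa it fell by 0.36 (SE 0.08, adjusted p = 0.00409). Both of 2 measured list members thus rose in CRISPRi and fell in CRISPRa, beside 41.1% and 43.3% of all genes called. Both CRISPRa calls held without GFI1B_20, beside 17 of all 90 genes called. The median of the 2 members was 0.41 in CRISPRi and -0.35 in CRISPRa, against 0.00 and -0.01 over all 90 genes.

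Members of the erythroid and heme list moved mostly the other way in CRISPRi, where 6 of 8 measured members fell and 1 rose, beside 41.1% of all genes called. In CRISPRa 5 rose and 1 fell, beside 43.3% of all genes. Without GFI1B_20, however, only 1 of the 6 calls was left, of a gene that rose, beside 17 of all 90 genes called. The medians were -0.08 and 0.11, and 0.07 in CRISPRa without GFI1B_20. *CA1*, a carbonic anhydrase of red cells, was -0.33, -0.35, -0.34, -0.45, -0.63 and -0.50 in CRISPRi from GFI1B_15, GFI1B_16, GFI1B_18, GFI1B_17 and GFI1B_19 to GFI1B_20. GFI1B_19 was below all *TET2* sgRNAs, and the other 5 lay within their range. *CA1* fell by 0.31 in CRISPRi (SE 0.08, adjusted p = 0.00322) and rose by 0.24 ± 0.09 in CRISPRa (adjusted p = 0.0397, with a difference of 0.12 and an adjusted p of 0.244 without GFI1B_20). *HBZ*, the embryonic zeta globin, fell by 0.11 in CRISPRi (SE 0.03, adjusted p = 0.000606) and rose by 0.14 ± 0.05 in CRISPRa (adjusted p = 0.0397, with a difference of 0.09 and an adjusted p of 0.198 without GFI1B_20). *RHD*, the Rh blood group antigen, fell by 0.12 in CRISPRi (SE 0.04, adjusted p = 0.0304) and had a difference of 0.03 ± 0.04 in CRISPRa (adjusted p = 0.562). *ALAS2*, the first enzyme of heme synthesis in red cells, was the member that did not pass in CRISPRi (0.03 ± 0.04, adjusted p = 0.573), and it rose by 0.23 ± 0.07 in CRISPRa (adjusted p = 0.0189, with a difference of 0.15 and an adjusted p of 0.109 without GFI1B_20). The member that rose in CRISPRi was *FAH*, an enzyme of tyrosine breakdown, by 0.07 ± 0.01 (adjusted p = 4.28e-05). *SPTB*, a red cell spectrin gene outside the list, averaged -0.04 with enhancer and 0.01 with *TET2* sgRNAs in CRISPRi. In CRISPRa *SPTB* averaged 0.19 and -0.03, with 0.60 for GFI1B_20.

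The 3 measured megakaryocyte and platelet genes did not move together, with 1 higher and 1 lower in each line, beside the same 41.1% and 43.3% of all genes. *TUBB1*, the platelet beta-tubulin, was -0.33, -0.49, -0.45, -0.16, -0.60 and -0.74 in CRISPRi from GFI1B_15, GFI1B_16, GFI1B_18, GFI1B_17 and GFI1B_19 to GFI1B_20, and 5 of the 6 were below all *TET2* sgRNAs. It fell by 0.43 (SE 0.07, adjusted p = 2.68e-05), the largest change among the genes that passed in CRISPRi. In CRISPRa it rose by 0.40 ± 0.10 (adjusted p = 0.0042), with values of 0.22 to 0.44 for 5 sgRNAs and 1.25 for GFI1B_20, and the rise was 0.25 ± 0.07 without that sgRNA (adjusted p = 0.014). *ANKRD26*, whose 5′ UTR variants cause a hereditary thrombocytopenia, rose by 0.16 ± 0.03 in CRISPRi (adjusted p = 0.000486) and fell by 0.22 in CRISPRa (SE 0.06, adjusted p = 0.0106). *SRGN*, a granule proteoglycan, had differences of 0.00 ± 0.02 in both lines (adjusted p = 0.972 and 0.927).

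Among stem cell and lineage factors, 3 of 8 rose and 2 fell in CRISPRi, and 1 rose and 4 fell in CRISPRa, beside 41.1% and 43.3% of all genes called. Without GFI1B_20, 0 of 8 rose and 3 fell in CRISPRa, beside 2 higher and 15 lower of all 90 genes. *BHLHE40*, a transcriptional repressor, was 0.11, 0.16, 0.26, 0.29, 0.48 and 0.57 in CRISPRi from GFI1B_15, GFI1B_16, GFI1B_18, GFI1B_17 and GFI1B_19 to GFI1B_20, rising at each step as *GFI1B* fell. It rose by 0.26 ± 0.05 (adjusted p = 0.000403) and fell by 0.28 in CRISPRa (SE 0.08, adjusted p = 0.0126). *JUN*, an AP-1 subunit, rose by 0.28 ± 0.05 in CRISPRi (adjusted p = 4.26e-05) and fell by 0.22 in CRISPRa (SE 0.05, adjusted p = 0.00409). *NFIA*, a factor that promotes the red cell fate, fell by 0.36 in CRISPRa (SE 0.08, adjusted p = 0.00334) and had a difference of 0.04 ± 0.04 in CRISPRi (adjusted p = 0.431). *MYB*, another TF that the study targeted, rose by 0.14 ± 0.02 in CRISPRi (adjusted p = 1.88e-05) and fell by 0.26 in CRISPRa (SE 0.09, adjusted p = 0.0212), where GFI1B_20 was at -1.01 and the other 5 at -0.28 to 0.05. *NFE2*, targeted too, had differences of 0.00 ± 0.01 and -0.02 ± 0.02 (adjusted p = 0.773 and 0.255).

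Genes outside the 4 lists were also among those with the largest differences that passed. *PKM*, which encodes a pyruvate kinase of glycolysis, was 0.09, 0.16, 0.19, 0.22, 0.27 and 0.30 in CRISPRi from GFI1B_15, GFI1B_16, GFI1B_18, GFI1B_17 and GFI1B_19 to GFI1B_20. All 6 were above every *TET2* sgRNA, and the rise of 0.20 ± 0.02 had the smallest adjusted p of the line (1.25e-08). In CRISPRa *PKM* fell by 0.26 (SE 0.06, adjusted p = 0.00334). *TLNRD1*, an actin-bundling protein, rose by 0.24 ± 0.04 (adjusted p = 2.68e-05) and fell by 0.34 (SE 0.09, adjusted p = 0.00622). *PLCD1*, a phospholipase C, fell by 0.29 in CRISPRi (SE 0.05, adjusted p = 7.79e-05) and rose by 0.28 ± 0.08 in CRISPRa (adjusted p = 0.0106), with a difference of 0.23 ± 0.08 without GFI1B_20 (adjusted p = 0.0508). *KLK1*, a secreted serine protease, fell by 0.26 in CRISPRi (SE 0.06, adjusted p = 0.000566) and rose by 0.23 ± 0.08 in CRISPRa (adjusted p = 0.0212, with a difference of 0.14 and an adjusted p of 0.13 without GFI1B_20). The control *GAPDH*, a glycolytic enzyme, had differences of 0.01 ± 0.00 and -0.01 ± 0.01 (adjusted p = 0.273 and 0.138). Without GFI1B_20, the falls in CRISPRa of *ANKRD26*, *BHLHE40*, *JUN*, *MYB*, *NFIA*, *PKM* and *TLNRD1* still passed, with smaller differences of -0.12, -0.15, -0.14, -0.10, -0.22, -0.17 and -0.22. *LHX3* differed by at most 0.01 on average, but 19 of 20 sgRNAs shared 1 identical value of it in each line, the lowest.

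The direct comparison asked whether the enhancer and promoter routes gave different trans profiles. With class as the only term, 0 of 91 trans genes (0%) passed in CRISPRi and 0 of 91 (0%) in CRISPRa by limma, with 17 and 1 genes at an unadjusted p under 0.05. A per-gene exact permutation test also called 0 in each line, with 18 and 2 genes at an unadjusted p under 0.05. The 95% interval of the class difference had a median half-width of 0.0786 in CRISPRi and 0.0974 in CRISPRa. *TET2* differed by -0.10 ± 0.07 (adjusted p = 0.362) and 0.03 ± 0.08 (adjusted p = 0.954).

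The 3 genes with the smallest p in CRISPRi did not pass. *CHST3*, a sulfotransferase of chondroitin chains, was 0.20, 0.15, 0.06, 0.10, 0.01 and 0.11 from GFI1B_15, GFI1B_16, GFI1B_18, GFI1B_17 and GFI1B_19 to GFI1B_20, with a mean of 0.11, and -0.02 on average with promoter sgRNAs. The difference was 0.12 ± 0.03 (SE, adjusted p = 0.0843), and 4 of the 6 enhancer sgRNAs were above all promoter sgRNAs. Of the 14 promoter sgRNAs, 5 shared 1 identical *CHST3* value, -0.09, the lowest of the 20 sgRNAs, as most did for *LHX3*. It was also the lowest *CHST3* value among the *TET2* sgRNAs in CRISPRi, so the class difference rests partly on a shared lowest value. The origin of these shared values was not tested. *NR2F2*, a nuclear receptor, differed by 0.09 ± 0.03 (adjusted p = 0.199). *SPI1* differed by -0.43 ± 0.16 (adjusted p = 0.199, 95% interval -0.75 to -0.10), with promoter sgRNAs running from 0.00 to 1.12 around a median of 1.00. In CRISPRa the smallest p belonged to *FOXO3*, a forkhead factor of stress responses (0.09 ± 0.04, adjusted p = 0.954), *SPTB*, the red cell beta-spectrin (0.20 ± 0.11, adjusted p = 0.954), and *HES4*, a Notch-related repressor (0.10 ± 0.06, adjusted p = 0.954). None of the members of the 4 lists passed in either line. The erythroid and heme median of the class difference was 0.04 in CRISPRi and 0.05 in CRISPRa, the myeloid median -0.31 and -0.15, and the median over all 91 genes 0.01 and -0.01.

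Because the promoter sgRNAs went further in CRISPRi, the next comparison took account of the *GFI1B* change that each sgRNA reached. Over all 20 sgRNAs, with class kept in the fit, 55 of 91 trans genes (60.4%) had a linear *GFI1B* term in CRISPRi, 31 rising and 24 falling with *GFI1B*, and 57 (62.6%) had one in CRISPRa, 20 rising and 37 falling. *GFI1B* and the trans genes of an sgRNA are read from the same cells. Both classes reached a shared range of *GFI1B* with 5 enhancer and 5 promoter sgRNAs in CRISPRi, or 5 and 8 in CRISPRa, and over it the counts were 19 and 30. Per unit of *GFI1B* log2(FC), *SPI1* changed by -0.66 ± 0.07 in CRISPRi (SE, adjusted p = 5.08e-07) and -1.10 ± 0.24 in CRISPRa (adjusted p = 0.000545), and *BHLHE40* by -0.49 ± 0.05 (adjusted p = 1.72e-07) and -1.95 ± 0.20 (adjusted p = 6.08e-07). By list, 5 of 8 erythroid and heme genes rose and 1 fell with *GFI1B* in CRISPRi (6 and 1 in CRISPRa), both myeloid genes fell in each line, 2 of 3 megakaryocyte and platelet genes rose and 1 fell in CRISPRi (1 and 2 in CRISPRa), and stem cell and lineage factors were split, 4 rising and 4 falling in CRISPRi and 2 and 6 in CRISPRa. *GAPDH* passed as well, with slopes of 0.01 in CRISPRi (adjusted p = 0.0374) and -0.09 in CRISPRa (adjusted p = 0.00952). In CRISPRi the slope over the enhancer sgRNAs alone was -1.07 for *SPI1* and -0.90 for *BHLHE40*, beside -0.63 and -0.47 for the promoter sgRNAs. A difference in slope between the classes passed for 0 of 91 genes (0%) in CRISPRi and 0 of 91 (0%) in CRISPRa by limma, with 5 and 2 at an unadjusted p under 0.05. The 95% interval of that difference had a median half-width of 0.293 and 0.602 per unit of *GFI1B* log2(FC), so slopes were poorly resolved within the narrow range of the enhancer sgRNAs.

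At equal *GFI1B*, with a linear and a squared *GFI1B* term in the fit, the class term passed for 0 of 91 genes (0%) in CRISPRi and 0 of 91 (0%) in CRISPRa, with 10 and 1 at an unadjusted p under 0.05. The median half-width of the 95% interval was 0.0609 in CRISPRi and 0.0847 in CRISPRa. The class difference of *SPI1* in CRISPRi, -0.43 without the *GFI1B* term, was -0.05 ± 0.06 at equal *GFI1B* (95% interval -0.17 to 0.07). The genes closest to passing in CRISPRi were *PKM* (0.06 ± 0.02), *JUN* (0.18 ± 0.05), *KLK1* (-0.24 ± 0.07), *FOXP1* (0.10 ± 0.03) and *DAPK1* (0.09 ± 0.03), each with an adjusted p of 0.074. *JUN* with enhancer sgRNAs was 0.12, 0.17, 0.26, 0.31, 0.29 and 0.43 in the order from GFI1B_15, GFI1B_16, GFI1B_18, GFI1B_17 and GFI1B_19 to GFI1B_20. The promoter sgRNAs, with *GFI1B* far lower in 9 of 14, ran from -0.15 to 0.47 with a median of 0.33.

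The absence of calls in CRISPRi was sensitive to which sgRNAs were used and how they were weighted. With sgRNAs weighted by their cells, limma called 7 genes at equal *GFI1B*, 6 higher and 1 lower with enhancer sgRNAs: *PKM* (0.06), *MYB* (0.07), *FOXP1* (0.10), *DAPK1* (0.09), *SLC22A4* (0.18), *ANKRD26* (0.12) and *KLK1* (-0.25), with adjusted p from 0.0307 to 0.048. With only sgRNAs of at least 30 cells, which leaves out GFI1B_3 with 11 cells, it called *PKM* (0.07) and *MYB* (0.07), both with an adjusted p of 0.0342. Leaving out GFI1B_2, which had 86 cells, gave calls of *JUN* (0.23, adjusted p = 0.00399), *PKM* (0.07) and *DAPK1* (0.11), the latter 2 at an adjusted p of 0.0195, and leaving out GFI1B_17, with 48 cells, a call of *TUBB1* (-0.20, adjusted p = 0.0193). No other single sgRNA changed the count besides GFI1B_3, and with enhancer sgRNAs averaged per element it called 0. In CRISPRa the smallest p at equal *GFI1B* belonged to *CTCFL*, a germ cell paralogue of CTCF (-0.04 ± 0.02, adjusted p = 0.705), *FOXO3* (0.09 ± 0.05, adjusted p = 0.953) and *SPTB* (0.13 ± 0.07, adjusted p = 0.953). The difference between the 2 lines in the class term passed for 0 of 91 genes (0%), with 2 at an unadjusted p under 0.05, and the smallest p belonged to *JUN* (0.24 ± 0.07, adjusted p = 0.087). With each sgRNA as a block across the lines, it also passed for 0 of 91, with 3 at an unadjusted p under 0.05.

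Pairing each enhancer sgRNA with the promoter sgRNA nearest to it in *GFI1B* gives the same comparison without a fit. In CRISPRi the 6 pairs differed by a root mean square of 0.0911 to 0.167 over the 91 trans genes (median 0.115), with 6 to 18 genes more than 0.2 apart. GFI1B_16 and GFI1B_12 reached -0.16 and -0.13 with 106 and 151 cells, had response sizes of 0.072 and 0.057, and differed by 0.0911. GFI1B_17 and GFI1B_2 reached -0.23 and -0.24, with sizes of 0.093 and 0.101 and a difference of 0.101. GFI1B_18 and GFI1B_1, at -0.20 and -0.19, had sizes of 0.092 and 0.088 and differed by 0.129. GFI1B_15 and GFI1B_4 lay on either side of 0 (0.05 and -0.04), with sizes of 0.061 and 0.038 and a difference of 0.0971. GFI1B_19 and GFI1B_20 both had GFI1B_3 as their nearest partner (-0.38 and -0.51 beside -0.40), with sizes of 0.13 and 0.145 beside 0.149, but GFI1B_3 had 11 cells and 18 and 17 genes were more than 0.2 apart.

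In CRISPRa the 6 pairs differed by 0.13 to 0.196 (median 0.166), with 11 to 21 genes more than 0.2 apart. The smallest difference was that of GFI1B_20 and GFI1B_5, which activated *GFI1B* to 0.51 and 0.49 with 59 and 92 cells and had response sizes of 0.287 and 0.3. Even there, *TUBB1* was 0.55 higher with GFI1B_20. The largest was that of GFI1B_19 and GFI1B_14, at 0.16 and 0.17 with 34 and 43 cells and sizes of 0.0773 and 0.137. GFI1B_17 and GFI1B_1, at 0.20 in both cases with 30 and 31 cells, had sizes of 0.0702 and 0.13 and differed by 0.175. The enhancer sgRNA had the larger size in the other 3 pairs. GFI1B_16 and GFI1B_2 had sizes of 0.119 and 0.0664 and differed by 0.164. GFI1B_15 and GFI1B_18 were both set beside GFI1B_9 (0.0622), with sizes of 0.0874 and 0.078 and differences of 0.168 and 0.134. The size was thus larger with the enhancer sgRNA in 3 of the 6 CRISPRa pairs and smaller in 3.

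Within CRISPRi, sgRNAs of the same element differed from each other by a root mean square of 0.0797 at element 1, 0.119 at element 2 and 0.0765 at element 3, and sgRNAs of different elements by 0.0896 to 0.165 over 12 pairs (median 0.133). In CRISPRa the same-element values were 0.123, 0.134 and 0.399, the last between GFI1B_19 and GFI1B_20, beside 0.123 to 0.379 for different elements (median 0.158). GFI1B_19 and GFI1B_20 lie in the same element and were closest to each other in CRISPRi, but in CRISPRa they were the pair farthest apart, with *GFI1B* at 0.16 and 0.51. Across the 6 enhancer sgRNAs in CRISPRi, 8 of 91 trans genes followed the order of *GFI1B* without exception. *BHLHE40*, *PKM*, *PPP1R14A* and *SPI1* rose at each step of lower *GFI1B*, and *AK1*, *KLK1*, *MTERF2* and *NUDT4* fell. No trans gene followed the order of *GFI1B* in this way in CRISPRa, where 5 of the 6 *GFI1B* values lay between 0.12 and 0.20.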

How the data were processed

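The authors deposited 1 table of log2 fold changes against NTC cells, with numbers of cells, sgRNA coordinates and sgRNA scores, made with Cell Ranger, alevin (hashing tags) and Seurat from cells with 1 sgRNA of both lanes together. Per the study's methods, droplets with several sgRNAs and the cells with the most UMIs were discarded, and hashing tags and the dCas9 transcript assigned the line. No doublet caller is described, and none could be run on the deposited averages. The methods describe a natural log and the column name log2, and the deposited values were taken as log2. Columns of p-values and FDR hold the authors' own tests and were not used, nor were counts per cell. No per-sample column was left unmapped (0).

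Members, gene lists and the *TET2* comparison were chosen with earlier results of these data known. Class terms were fitted with limma 3.58.1 (R 4.3.3) across 91 trans genes, 20 sgRNAs per line and no covariate, then with *GFI1B* log2(FC) and its square, using Benjamini-Hochberg adjustment and a threshold of 0.05. *GFI1B* and response sizes were compared by two-sided exact permutation over sgRNAs, adjusted over 2 lines. The *GFI1B* term, the slope difference and the *TET2* comparison (90 genes) were added after seeing the data. Named genes are up to 10 per fit with the largest absolute term among those that passed (the 3 with the smallest p where fewer than 3 did), *MYB*, *NFE2*, *TET2*, *GAPDH*, *LHX3* and members of 4 fixed lists; genes outside this rule were named after their values were seen. The lists are erythroid and heme (34 genes, 8 measured), megakaryocyte and platelet (14, 3), myeloid (8, 2) and stem and lineage factors (13, 8). Protospacers were matched to hg38, and their annotation is that of GENCODE 44. The code (Python 3.11.15, numpy 2.4.6, pandas 2.3.3, scipy 1.17.1) was tested on simulated data. A gene that the rule selects is left out of the text.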

Additional observations from a re-analysis of the deposited data

Results flagged for a closer look

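In CRISPRa, GFI1B_20 stood apart from the other 5 enhancer sgRNAs in *GFI1B* itself (log2(FC) of 0.507), in the mean absolute log2(FC) of the trans genes (0.287), in *FAH* (-0.528), *ANKRD26* (-0.77), *TUBB1* (1.25), *CTCFL* (0.0986), *MYB* (-1.01), *BHLHE40* (-0.931) and *GAPDH* (-0.058). In CRISPRi it stood apart in *SLC25A37* (-0.143), a mitochondrial iron importer, and GFI1B_17 did so in CRISPRa in *TET2* (0.0918). Each gap to the nearest of the others, as a share of the whole range, was above the 95% critical value of Dixon's test for 6 values, and 11 of 72 sets of values were so marked. The sets are *GFI1B*, the response size and 34 genes in each line, the genes being those named by the rule, the list members and the controls, without *LHX3*. Chance marks about 1 in 20 such sets, and the sets share the same 6 sgRNAs. GFI1B_20 had 59 cells, the most of the enhancer sgRNAs in CRISPRa, and its on-target score was 0.0793, the second lowest of the 6. The other sgRNA of element 3, GFI1B_19, had 34 cells, an on-target score of 0.412, and a *GFI1B* log2(FC) of 0.16.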

How the results depend on the processing

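By replicate number, no paired analysis was possible because these numbers mark only sequencing records. The lines could be paired by sgRNA, and with each sgRNA as a block the difference between them in the class term passed for 0 genes, as it did without the block. The *GFI1B* difference in CRISPRi kept its direction in all alternatives run, but its adjusted p (exact permutation test) was 0.197 with enhancer sgRNAs averaged per element (0.60), 0.067 with tiling sgRNAs only (0.53), 0.0865 for medians (0.88) and 0.0656 weighted by cells (0.56). Leaving out single sgRNAs gave 0.54 to 0.66. The response size in CRISPRi ranged from -0.0656 to -0.0487, past the threshold without GFI1B_4 or GFI1B_12. In CRISPRa it turned to -0.00352 for medians and ranged from -0.0214 to 0.0269. Genes differing by class in CRISPRi were 1 at an adjusted p under 0.1 and 0 to 1 without single sgRNAs. At equal *GFI1B* they were 2 with at least 30 cells, 7 weighted by cells, 5 at an adjusted p under 0.1 and 0 to 3 without single sgRNAs (3 without GFI1B_2, 2 without GFI1B_3, 1 without GFI1B_17), and the linear, spline, shared-range and 2-line fits called 0. Slope differences in CRISPRa were 0 to 1 without single sgRNAs. *GFI1B* terms over the shared range were 19 in CRISPRi and 30 in CRISPRa. For enhancer against *TET2* sgRNAs in CRISPRa, element means gave 25 and leaving out single sgRNAs 17 to 44 (17 without GFI1B_20, with 2 higher and 15 lower); in CRISPRi the range was 30 to 39. For promoter against *TET2* sgRNAs in CRISPRa, the count was 16 with at least 30 cells, 18 weighted by cells, 18 at an adjusted p under 0.1, 0 with tiling sgRNAs only and 0 to 14 without single sgRNAs. The causes were not tested. With 6 enhancer sgRNAs at 3 elements, 1 culture a line and as few as 11 cells a sgRNA, small differences could not be resolved.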
